A study of Mus musculus with 32 samples.

Results

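The 36 genes described here carry glucose into cells, break it down to pyruvate and lactate, and answer a shortage of oxygen. They were chosen by name, and all 36 were found among the 23337 gene symbols of the count table and passed the filter on low counts in every main fit. By role, 4 are transporters of glucose or lactate, 8 act in upper glycolysis and 6 in lower glycolysis, 4 regulate the glycolytic flux, 3 are the oxygen-responsive factor HIF and its hydroxylases, and 11 are other genes induced in low oxygen. The RNA came from sorted cells of mouse gliomas grown in XFM mice, which received DF-1 cells, a chicken fibroblast line carrying the growth factor PDGFB, into the brain at 5 to 6 weeks of age. Mice entered the trial at a tumour volume of 20 to 40 mm3 and were dosed daily, either with vehicle or with the drug BLZ945, which blocks the macrophage growth factor receptor CSF-1R, up to the onset of symptoms or an age of 26 weeks.

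The sorts were TAM, the CD11b+ Gr1- tumour-associated macrophages and microglia, and TC, the PDGFRA+ tumour cells. Each sort was sampled at 3 stages. Rebound tumours (BLZ945, 5 TAM and 5 TC libraries) and Endpoint tumours (BLZ945, called dormant in the labels, 6 and 6 libraries) were set against Vehicle tumours (no BLZ945 by their stage, 5 and 5 libraries). The agent field of the labels names BLZ945 throughout, also for Vehicle, so the stage was used to tell treated from untreated. Every library of a group came from a different mouse, and both sorts were sequenced from 15 of the 17 mice. The tumours were started by 1 growth factor, and PDGFRA, used to sort the TC, also marks normal oligodendrocyte progenitors.

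Glycolysis turns glucose into pyruvate. Lactate dehydrogenase then makes lactate, which leaves the cell through monocarboxylate transporters. In low oxygen the prolyl hydroxylases slow down, the HIF-1 alpha protein is no longer degraded, and HIF switches on most of these transporters and enzymes together with secreted and mitochondrial stress genes. HIF binds DNA at a short core, A or G followed by CGTG. Activated macrophages are known for high glycolysis, and hypoxic niches are a textbook feature of gliomas.

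The promoters of 4 members are shown because they carry this core more than once and their genes take part in the comparisons that follow. In the RefSeq windows on GRCm38.p6, of 250 bases before to 50 bases after the start of a gene, 34 of the 36 members were matched. The core ACGTG, on either strand, stood in a window of 26 of these 34 genes (76.5%), against 5886 of all 27025 genes with a window (21.8%). GCGTG, counted separately, stood in 23 of the 34 (67.6%), against 9500 of 27025 (35.2%), and a gene can count for both cores. In 13 of the 34 members (38.2%) a window held ACGTG at least 2 times over both strands, against 2508 of 27025 genes (9.28%). A palindrome CACGTG counts 2 times here, in members and in all genes. This alone gave the counts of Pfkfb3 (-53 and -52) and Bnip3 (-108 and -107). These are counts of letters in a window, and no binding was measured. The members were chosen by name as glycolysis and hypoxia genes, so their shares are no test of control by HIF. They had 46 windows for 34 genes, against 32851 windows for all 27025 genes. The 2 sets were not matched for windows, base content or expression. Each line gives the 250 bases upstream of the start, 5′ to 3′ in the gene's own direction, with ACGTG and its reverse complement CACGT in capitals.
Hk2, chr6:82774455-82774704, minus strand: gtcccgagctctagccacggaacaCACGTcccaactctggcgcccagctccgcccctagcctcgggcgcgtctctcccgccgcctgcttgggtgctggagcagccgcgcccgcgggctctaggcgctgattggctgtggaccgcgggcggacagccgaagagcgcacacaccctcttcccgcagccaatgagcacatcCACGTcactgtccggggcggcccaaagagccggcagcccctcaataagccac
Slc16a3, chr11:120948817-120949066, plus strand: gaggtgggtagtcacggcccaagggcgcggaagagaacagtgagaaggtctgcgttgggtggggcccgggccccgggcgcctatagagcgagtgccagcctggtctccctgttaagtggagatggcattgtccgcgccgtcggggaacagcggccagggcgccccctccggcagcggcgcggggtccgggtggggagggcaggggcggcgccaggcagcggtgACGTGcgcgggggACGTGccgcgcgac
Ldha, chr7:46845554-46845803, plus strand: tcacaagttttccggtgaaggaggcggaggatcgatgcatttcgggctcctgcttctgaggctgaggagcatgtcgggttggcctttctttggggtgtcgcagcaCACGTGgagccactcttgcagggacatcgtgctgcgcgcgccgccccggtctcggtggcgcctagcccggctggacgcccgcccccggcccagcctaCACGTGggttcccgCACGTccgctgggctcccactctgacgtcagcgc
Pgk1, chrX:106186850-106187099, plus strand: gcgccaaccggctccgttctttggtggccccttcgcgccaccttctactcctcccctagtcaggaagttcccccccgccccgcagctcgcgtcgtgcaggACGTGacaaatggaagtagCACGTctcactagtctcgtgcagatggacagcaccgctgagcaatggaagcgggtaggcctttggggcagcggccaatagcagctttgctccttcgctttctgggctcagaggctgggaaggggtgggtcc
Counted from the start, the cores began at positions -226 and -52 in Hk2, at -27 and -14 in Slc16a3, and at -150 and -131 in Pgk1. In Ldha they began at -145, -144, -48, -47 and -34, where each CACGTG is a palindrome that counts on both strands.

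Library totals were 15.4 to 19.6 M counts in Rebound TAMs, 9.54 to 15.8 M in Endpoint TAMs and 25.6 to 30.4 M in Vehicle TAMs. They were 10.5 to 16.5 M in Rebound TCs, 4.18 to 14.0 M in Endpoint TCs and 13.1 to 23.0 M in Vehicle TCs. Levels by library are CPM, counts scaled to a common library size by trimmed means (TMM) within the 16 libraries of a sort, and levels per kilobase and between sorts are scaled over all 32 libraries together. The summed CPM of 12 myeloid markers reached 32785 to 51213 in Rebound TAMs, 36907 to 43031 in Endpoint TAMs and 49237 to 78883 in Vehicle TAMs. The 10 tumour and oligodendrocyte progenitor markers summed to 1871 to 6353 CPM in Rebound TCs, 201 to 1915 CPM in Endpoint TCs and 2012 to 7546 CPM in Vehicle TCs. Endpoint TCs, sorted as tumour cells, were therefore low in the markers of their label. They also carried 6450 to 219241 CPM of ependymal and choroid plexus markers, against 11.6 to 621 CPM in Vehicle TCs, and 22320 to 34056 CPM of myelinating oligodendrocyte markers, against 2735 to 17712 CPM in Vehicle TCs. T and NK cell markers summed to 7.58 to 4248 CPM in Rebound TCs, 14.8 to 6955 CPM in Endpoint TCs and 6.28 to 14.5 CPM in Vehicle TCs, and myeloid markers to 64.1 to 3607, 2125 to 12838 and 258 to 2583 CPM in the same stages. The Rebound TC library of mouse 49827 stood apart from the other Rebound TCs, with the group's highest sums of T and NK cell markers (4248 CPM) and oligodendrocyte markers (17841 CPM). Its sums of myeloid (3607 CPM), astrocyte (7393 CPM) and neuron markers (436 CPM) were also the group's highest. Its sums of tumour and oligodendrocyte progenitor markers (1871 CPM) and of pericyte and fibroblast markers (120 CPM) were the group's lowest. In bulk RNA, fewer cells of a type and less RNA per cell cannot be told apart.

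Per kilobase of exon, scaled over all 32 libraries, Aldoa (aldolase), Pkm2 (pyruvate kinase) and Ldha (lactate dehydrogenase A) stood at the top of the members in both sorts. The median levels per kilobase of Aldoa were 520 CPM in Rebound TAMs, 195 CPM in Endpoint TAMs and 877 CPM in Vehicle TAMs, and 187, 380 and 379 CPM in Rebound, Endpoint and Vehicle TCs. Pkm2 followed with 374, 133 and 705 CPM per kilobase in Rebound, Endpoint and Vehicle TAMs, and with 174, 165 and 270 CPM per kilobase in the same stages of TCs. Some members that are abundant in most tissues were nearly uncounted in these files. Over all 32 libraries Gapdh had 1800 counts and Eno1 2948, against 694834 for Aldoa. Gapdh, Eno1, Pgam1 (7145 counts) and Pgk1 (19133 counts) have near-identical copies in the genome, and how shared reads were treated is not given in the sources used here, so their values are uncertain.

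**Figure D1:**
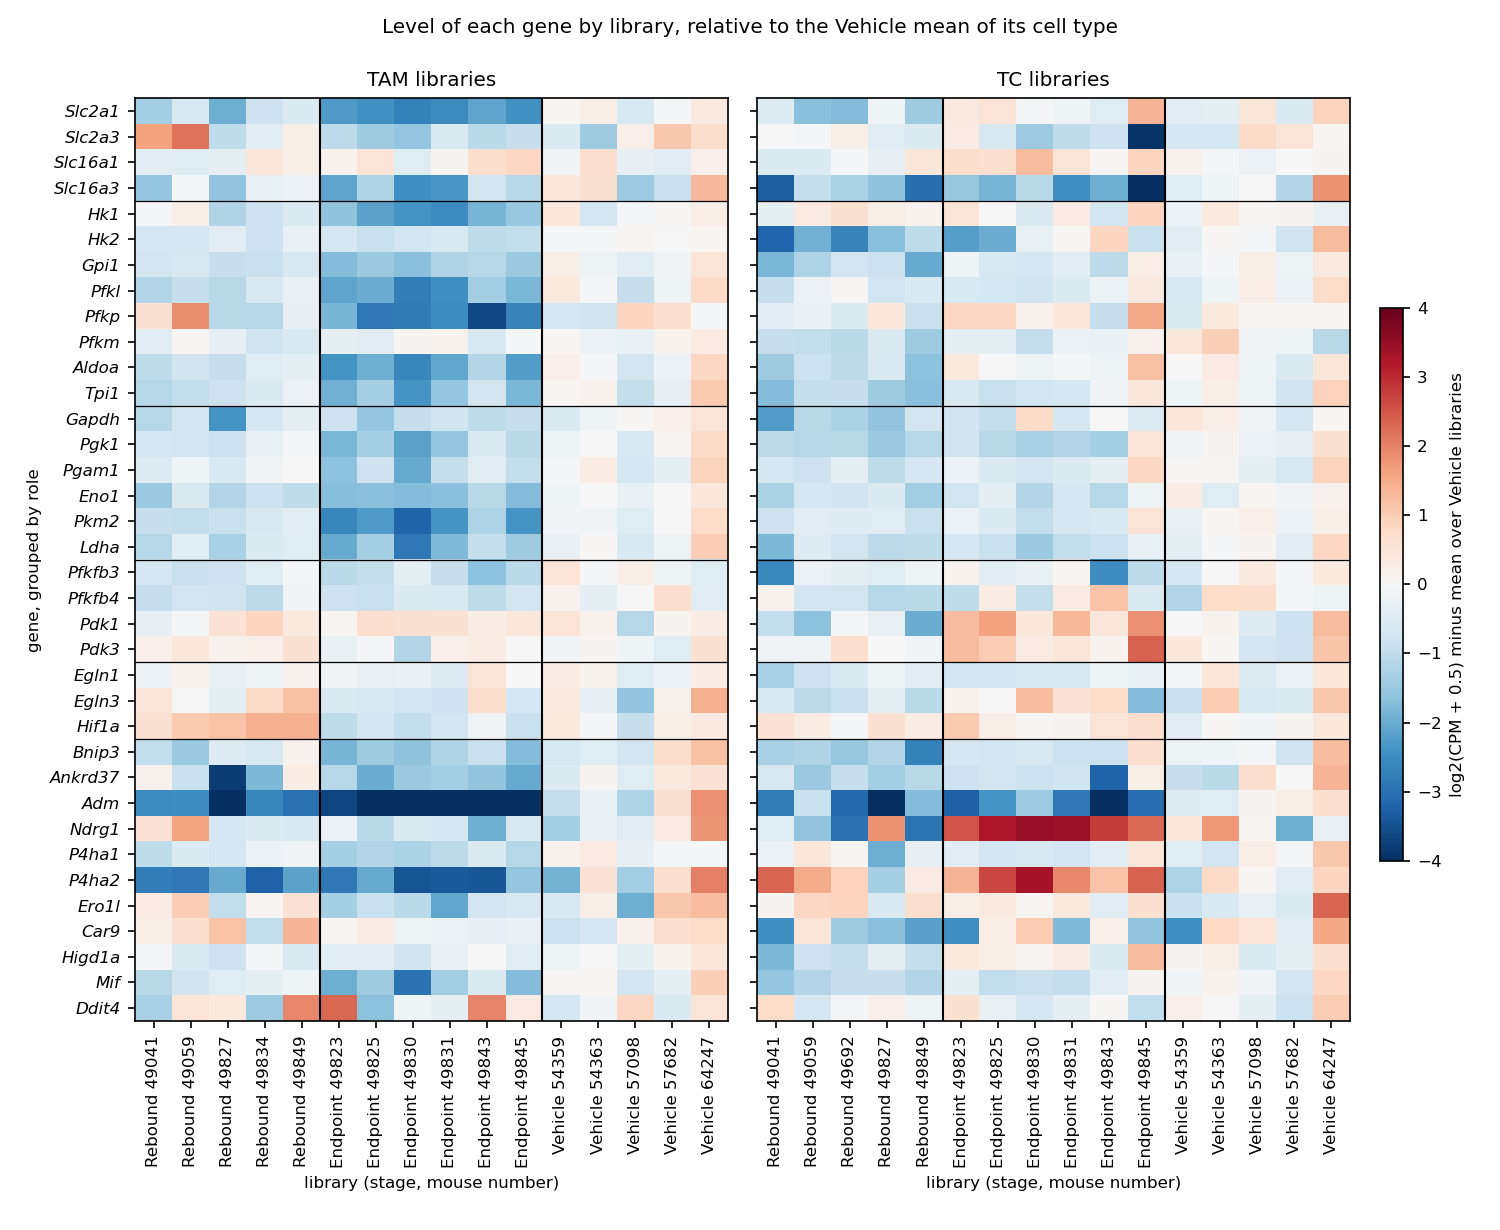
Difference of each member's log2(CPM + 0.5) from the Vehicle mean of its sort, with the 36 members in rows by role and the 32 libraries in columns by sort and stage. Most members lie below Vehicle in Endpoint TAMs, with 33 of 36 negative in the fitted comparison.

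In Endpoint TAMs most of the glycolytic chain was lower than in Vehicle TAMs. Of the 36 members 25 fell and 0 rose (edgeR, adjusted p under 0.05), where 19.3% of the 13315 genes tested fell and 13.7% rose. The median log2 fold change was -1.39 over the members and -0.03 over all genes tested. The groups did not overlap for 16 members, all lower in Endpoint TAMs, where 11% of genes lay wholly below. In Rebound TAMs 8 members fell and 1 rose against Vehicle TAMs, where 7.73% of genes fell and 7% rose, and the median over members was -0.57. Against Endpoint TAMs, 13 members rose in Rebound TAMs and 0 fell, where 11.7% of genes rose and 5.9% fell, and the median was 0.84. These 3 comparisons share their groups, so they are not independent of each other. Every count in the BLZ945 libraries was even, while Vehicle libraries held odd counts, a difference that goes with treatment. With the BLZ945 counts divided by 2, 25 members fell and 0 rose in Endpoint against Vehicle TAMs. Library scaling largely undoes such a division, so it cannot check a counting difference that varies from gene to gene. Such a difference cannot be told apart from treatment here. The summed myeloid markers were wholly lower in Endpoint than in Vehicle TAMs, as were endothelial markers (9.12 to 22.3 CPM in Endpoint, against 26.5 to 49.8 CPM in Vehicle TAMs). Other marker sums were wholly higher in Endpoint than in Vehicle TAMs. Myelinating oligodendrocyte markers summed to 607 to 1777 CPM in Endpoint TAMs, against 234 to 544 CPM in Vehicle TAMs, ependymal and choroid plexus markers to 50.7 to 129 CPM, against 2.24 to 5.14 CPM, and neuron markers to 23.4 to 50.3 CPM, against 10.4 to 17.8 CPM. In Rebound TAMs these sums were 673 to 3063, 2.89 to 426 and 12.6 to 30.8 CPM, and endothelial markers reached 55.8 to 128 CPM. The part of these cells in the counts was not tested.

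**Figure D2:**
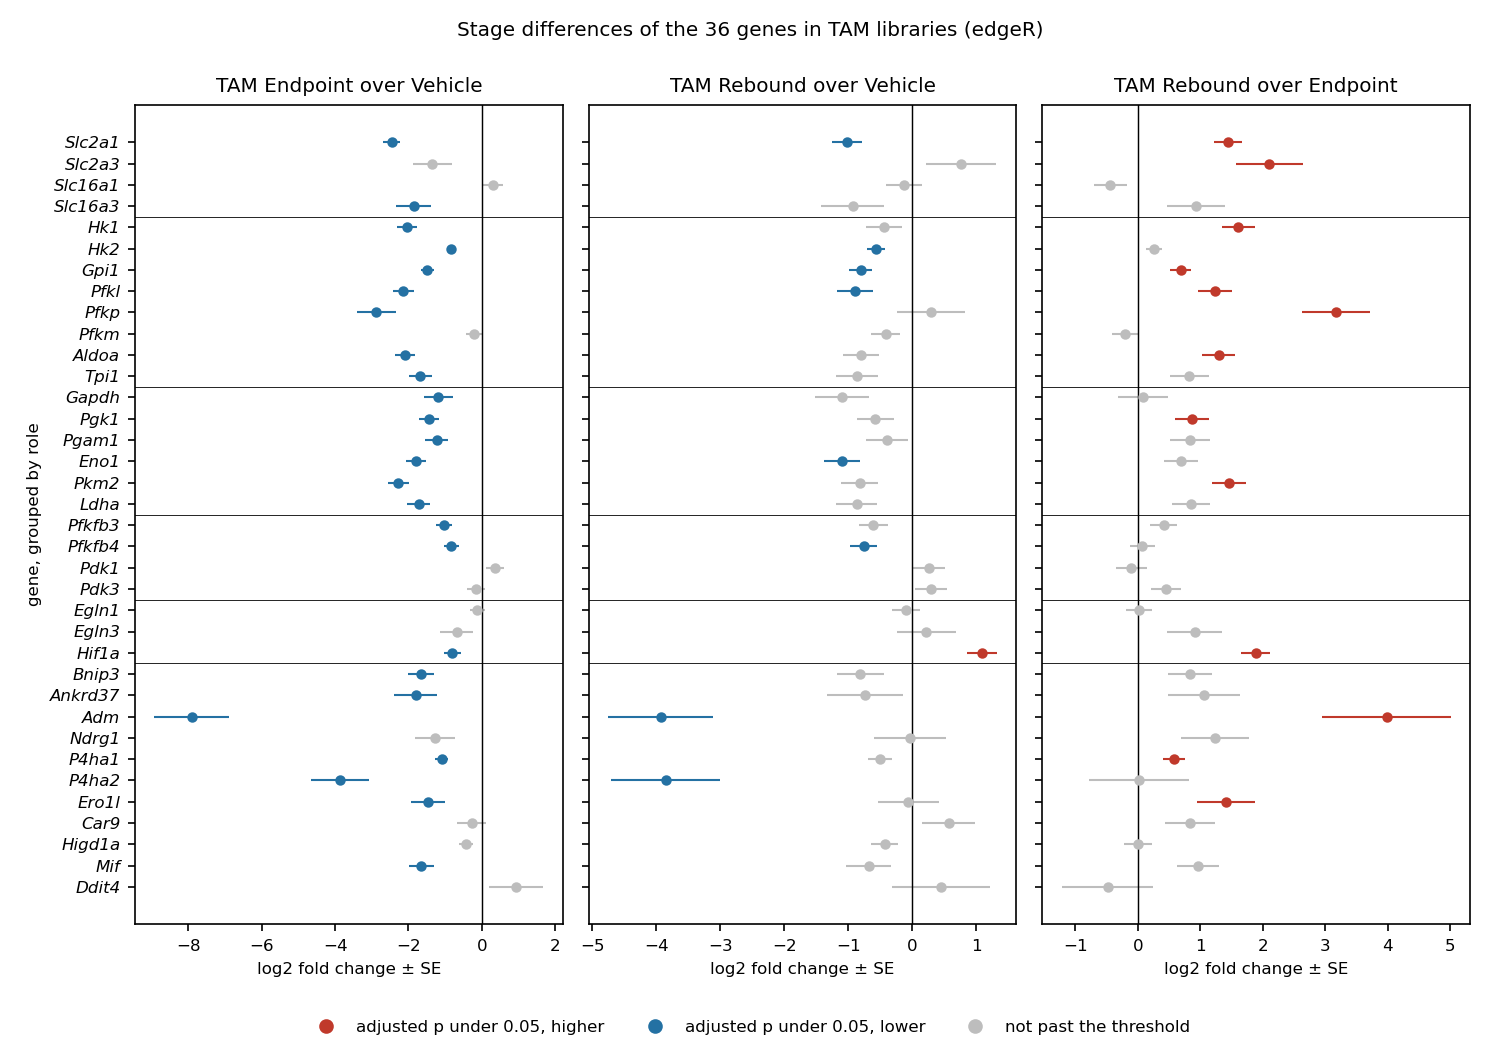
Log2 fold change with its standard error for each member in the 3 TAM comparisons, ordered by role, with coloured points for an adjusted p under 0.05. All 25 coloured points of Endpoint against Vehicle lie below 0, and all 13 of Rebound against Endpoint lie above 0.

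Among the 4 transporters, Slc2a1 (GLUT1, the widely used glucose importer; chr4:119108711-119137983, plus strand, GRCm38) differed between all 3 stages in TAMs. It had 77.6, 128, 51.2, 111 and 136 CPM in Rebound TAMs, 29.8 to 45.1 CPM (median 36.7) in Endpoint TAMs, and 209, 233, 131, 187 and 256 CPM in Vehicle TAMs. Every Endpoint library was below every Rebound and Vehicle library, and 1 Rebound library reached the lowest Vehicle value. The log2 fold change was -2.46 ± 0.23 (SE, adjusted p = 1.3e-06) for Endpoint against Vehicle, -1.01 ± 0.23 (0.0083) for Rebound against Vehicle and 1.45 ± 0.22 (0.00036) for Rebound against Endpoint. Slc2a3, the high-affinity importer GLUT3, had 98.5, 146, 15.5, 23.3 and 37.3 CPM in Rebound TAMs, 10.5 to 21.2 CPM (median 15) in Endpoint TAMs, and 21.7, 11.5, 36.3, 68.3 and 51.6 CPM in Vehicle TAMs. The first 2 Rebound values, from mice 49041 and 49059, stood far above the other 3. Slc2a3 rose in Rebound against Endpoint TAMs (2.10 ± 0.54, adjusted p = 0.013), and without these 2 libraries the change was 0.77 (adjusted p = 0.26). The same 2 libraries held the group's highest sums of T and NK cell markers, 141 and 166 CPM, and of neutrophil markers, 918 and 2256 CPM. By mean log2 CPM of the neutrophil markers, 49041 was highest (4.42), but 49059 (2.93) lay below 49849 (4.03) and 49834 (3.43). The part of those cells was not tested.

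The lactate transporters parted. Slc16a3 (MCT4, which exports lactate from highly glycolytic cells) had 39.9, 112, 39.1, 99.2 and 100.1 CPM in Rebound TAMs, 21.4 to 69.0 CPM (median 39.2) in Endpoint TAMs, and 159, 179, 42.9, 64.4 and 295 CPM in Vehicle TAMs. It fell in Endpoint against Vehicle TAMs by 1.85 ± 0.47 on the log2 scale (adjusted p = 0.0071), although the groups overlapped. Slc16a1 (MCT1, which moves lactate either way) had 13.5, 12.8, 14.0, 24.9 and 21.4 CPM in Rebound TAMs, 12.9 to 32.5 CPM (median 23.2) in Endpoint TAMs, and 16.8, 29.1, 14.4, 13.2 and 21.1 CPM in Vehicle TAMs. Its groups overlapped in all 3 comparisons, and its log2 fold change for Endpoint against Vehicle was 0.31 ± 0.27 (adjusted p = 0.39).

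In upper glycolysis 7 of 8 members fell in Endpoint against Vehicle TAMs, the exception being Pfkm. Of the 8, 3 fell in Rebound against Vehicle TAMs (Hk2, Gpi1 and Pfkl), and 5 rose in Rebound against Endpoint TAMs (Hk1, Gpi1, Pfkl, Pfkp and Aldoa). Hk1 and Hk2 are the hexokinases that trap glucose in the cell. Hk1 had 52.2, 63.8, 23.4, 30.3 and 35.7 CPM in Rebound TAMs, 8.99 to 18.4 CPM (median 13.2) in Endpoint TAMs, and 73.2, 33.8, 50.9, 55.6 and 65.3 CPM in Vehicle TAMs. The Endpoint libraries lay below all others, and Rebound and Vehicle overlapped. The log2 fold change of Hk1 was -2.05 ± 0.27 (adjusted p = 2.7e-05) for Endpoint against Vehicle and 1.61 ± 0.27 (0.0006) for Rebound against Endpoint.

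Hk2, the inducible hexokinase, kept a narrower range. It had 183, 183, 213, 166 and 245 CPM in Rebound TAMs, 144 to 192 CPM (median 165) in Endpoint TAMs, and 278, 278, 306, 294 and 312 CPM in Vehicle TAMs. Both BLZ945 groups lay wholly below Vehicle and overlapped each other. Hk2 fell by 0.83 ± 0.13 (adjusted p = 0.00017) in Endpoint and by 0.57 ± 0.14 (0.012) in Rebound against Vehicle TAMs on the log2 scale, and Rebound against Endpoint gave 0.26 ± 0.13 (0.2). Without the Rebound TAM libraries of mice 49041 and 49059, the Rebound value was -0.50 (adjusted p = 0.075).

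The phosphofructokinases make the committed step of glycolysis. Pfkl, the liver-type enzyme, had 245, 289, 256, 360.2 and 448 CPM in Rebound TAMs, 81.5 to 209 CPM (median 133) in Endpoint TAMs, and 727, 539.8, 292, 479 and 938 CPM in Vehicle TAMs. It fell by 2.14 ± 0.28 in Endpoint against Vehicle TAMs and rose by 1.24 ± 0.27 in Rebound against Endpoint TAMs on the log2 scale, with no overlap in either (adjusted p = 2.4e-05 and 0.004). For Rebound against Vehicle the change was -0.90 ± 0.28 (adjusted p = 0.041), and leaving out any of 7 of the 10 libraries (Rebound 49041, 49059, 49827 and 49834; Vehicle 54359, 54363 and 64247) gave adjusted p-values of 0.053 to 0.114. This call was also lost with upper-quartile scaling (-0.84, 0.051), with only the 2 groups fitted (-0.89, 0.075) and without mice 49041 and 49059 together (-0.75, 0.18).

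Pfkp, the platelet-type enzyme, had 64.8, 154, 19.4, 19.1 and 33.6 CPM in Rebound TAMs, 2.99 to 11.2 CPM (median 5.9) in Endpoint TAMs, and 25.8, 23.9, 77.3, 68.1 and 40.9 CPM in Vehicle TAMs. Endpoint TAMs were lowest throughout, and the 2 highest Rebound values came again from mice 49041 and 49059. Its log2 fold change was -2.87 ± 0.54 (adjusted p = 0.00085) for Endpoint against Vehicle and 3.17 ± 0.54 (0.0011) for Rebound against Endpoint. Pfkm, the muscle-type enzyme, had 12.8, 18.5, 13.8, 9.92 and 11.3 CPM in Rebound TAMs, 11.2 to 19.3 CPM (median 15.1) in Endpoint TAMs, and 18.4, 14.8, 13.9, 19.1 and 22.1 CPM in Vehicle TAMs. Its groups overlapped in every comparison, and Endpoint against Vehicle gave -0.20 ± 0.21 (adjusted p = 0.49).

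Gpi1, which makes fructose 6-phosphate, had 219.8, 236, 192, 198 and 233 CPM in Rebound TAMs, 110.0 to 164 CPM (median 130.1) in Endpoint TAMs, and 431, 315, 271, 335 and 527 CPM in Vehicle TAMs. The 3 stages did not overlap, with Rebound between Endpoint and Vehicle. Its log2 fold change was -1.48 ± 0.17 (adjusted p = 8.9e-06) for Endpoint against Vehicle, -0.80 ± 0.18 (0.0072) for Rebound against Vehicle and 0.68 ± 0.17 (0.0094) for Rebound against Endpoint, the last 0.63 (0.055) without mice 49041 and 49059. Aldoa, the aldolase that splits the sugar, had 1072, 1233, 1141, 1540.0 and 1639 CPM in Rebound TAMs, 351 to 961 CPM (median 484) in Endpoint TAMs, and 2487, 2076, 1287, 1834 and 3844 CPM in Vehicle TAMs. Endpoint lay below both other stages (-2.09 ± 0.27 against Vehicle, adjusted p = 2.5e-05; Rebound against Endpoint 1.29 ± 0.27, adjusted p = 0.0028), and Rebound overlapped Vehicle.

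All 6 members of lower glycolysis fell in Endpoint against Vehicle TAMs, by 1.18 to 2.27 on the log2 scale. Among them Gapdh, Eno1, Pgam1 and Pgk1 have near-identical copies in the genome, so their values are uncertain, as said above. Pkm2, the pyruvate kinase gene, had 1528, 1456, 1569, 1870.4 and 2152 CPM in Rebound TAMs, 315 to 1229 CPM (median 565) in Endpoint TAMs, and 2685, 2647, 2058, 2908 and 4792 CPM in Vehicle TAMs. Endpoint libraries were all below the Rebound and Vehicle ones, and 1 Rebound library exceeded the lowest Vehicle library. The log2 fold change of Pkm2 was -2.27 ± 0.28 (adjusted p = 1.6e-05) for Endpoint against Vehicle, 1.46 ± 0.28 (0.0015) for Rebound against Endpoint and -0.82 ± 0.29 (0.064) for Rebound against Vehicle. The table counts by gene symbol, so the splice forms of this gene are not separated.

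Ldha, which turns pyruvate into lactate, had 492, 774, 442, 743 and 772 CPM in Rebound TAMs, 149 to 561 CPM (median 364) in Endpoint TAMs, and 902, 1130.0, 719, 952 and 2169.9 CPM in Vehicle TAMs. Endpoint lay wholly below Vehicle (-1.72 ± 0.31, adjusted p = 0.00043), while Rebound overlapped both (-0.87 ± 0.32 against Vehicle, adjusted p = 0.078; 0.85 ± 0.31 against Endpoint, adjusted p = 0.06). Eno1 (enolase) was counted at low levels, 2.85, 5.75, 3.58, 4.64 and 4.11 CPM in Rebound TAMs, 2.27 to 3.77 CPM (median 2.38) in Endpoint TAMs, and 7.79, 8.66, 7.08, 8.86 and 12.3 CPM in Vehicle TAMs. Both BLZ945 groups lay wholly below Vehicle, by 1.79 ± 0.28 for Endpoint and by 1.09 ± 0.29 for Rebound (adjusted p = 0.00011 and 0.016). The fall of Gapdh in Endpoint against Vehicle TAMs (-1.18 ± 0.40, adjusted p = 0.029) did not pass without Endpoint 49825, Vehicle 57682 or Vehicle 64247 (0.060 to 0.089), with upper-quartile scaling (0.056) or with no filter (0.052). The rise of Pgk1 in Rebound against Endpoint TAMs (0.87 ± 0.28, adjusted p = 0.038) did not pass without any of 6 of the 11 libraries, Endpoint 49823, 49825, 49830 and 49831 and Rebound 49834 and 49849 (0.065 to 0.118), nor without mice 49041 and 49059 together (1.01, 0.057) or with upper-quartile scaling (0.77, 0.058).

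Of the regulators, Pfkfb3 and Pfkfb4, which make the activator of phosphofructokinase, fell in Endpoint against Vehicle TAMs, by 1.02 ± 0.22 and 0.83 ± 0.20 on the log2 scale. Pfkfb4 had 50, 56.0, 54.2, 45.7 and 87.3 CPM in Rebound TAMs, 46.8 to 64.2 CPM (median 54.9) in Endpoint TAMs, and 108, 73.9, 93.9, 151 and 68.7 CPM in Vehicle TAMs. Endpoint lay wholly below Vehicle, and Rebound overlapped Vehicle through 1 library. Its fall in Rebound against Vehicle TAMs (-0.76 ± 0.21, adjusted p = 0.024) did not pass without Rebound 49041, Rebound 49834 or Vehicle 57682 (0.053 to 0.056), nor without mice 49041 and 49059 together (0.12) or with only the 2 groups fitted (0.076). The kinases Pdk1 and Pdk3, which inhibit pyruvate dehydrogenase, passed no TAM comparison. Their log2 fold changes for Endpoint against Vehicle were 0.37 ± 0.25 and -0.15 ± 0.24.

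Hif1a, the oxygen-regulated subunit of HIF-1, was higher in Rebound than in Vehicle TAMs, a comparison in which 8 other members fell. It had 231, 315, 334, 414 and 414 CPM in Rebound TAMs, 75.3 to 138 CPM (median 86.4) in Endpoint TAMs, and 201, 147, 80.0, 181 and 195 CPM in Vehicle TAMs. Every Rebound library was above every other TAM library, while Endpoint and Vehicle overlapped. Hif1a was the 1 member that rose in Rebound against Vehicle TAMs (1.09 ± 0.24 on the log2 scale, adjusted p = 0.0063), and it rose in Rebound against Endpoint TAMs (1.89 ± 0.23, 4.7e-05) and fell in Endpoint against Vehicle TAMs (-0.80 ± 0.23, 0.011). This is the mRNA level, and HIF-1 alpha is controlled mainly as a protein, which was not measured. The hydroxylases Egln1 and Egln3, which mark HIF for degradation, passed no TAM stage comparison, at -0.12 ± 0.21 and -0.69 ± 0.45 for Endpoint against Vehicle.

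Of the 11 other hypoxia-inducible genes, 7 fell in Endpoint against Vehicle TAMs, 2 fell in Rebound against Vehicle TAMs and 3 rose in Rebound against Endpoint TAMs. Adm (adrenomedullin, a secreted vasodilator peptide; chr7:110627661-110629820, plus strand) had 1.1, 1.17, 0, 1.03 and 0.666 CPM in Rebound TAMs, 0 to 0.236 CPM (median 0) in Endpoint TAMs, and 4.36, 7.2, 3.48, 13.6 and 32.7 CPM in Vehicle TAMs. It was nearly uncounted in Endpoint TAMs, with 4 counts, all in mouse 49823, and 5 of 6 libraries at 0, against 1490 counts in Vehicle TAMs, of which 763 were in mouse 64247. Scaled to depth, the Endpoint to Vehicle ratio was 0.00367 (95% exact interval 0.000998 to 0.00941, counting error only). Every count in the BLZ945 libraries was even, and if each counted fragment was entered as 2, these intervals are too narrow. With 68 counts in Rebound TAMs the ratio to Vehicle was 0.0664 (0.0513 to 0.0847). Adm passed for Endpoint against Vehicle (adjusted p = 2.5e-05), Rebound against Vehicle (0.0051) and Rebound against Endpoint (0.012), the last at 0.071 without mice 49041 and 49059.

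P4ha2, a collagen prolyl hydroxylase subunit (chr11:54100095-54131665, plus strand), had 0.548, 0.469, 1.24, 0.258 and 1.11 CPM in Rebound TAMs, 0.142 to 1.95 CPM (median 0.33) in Endpoint TAMs, and 1.43, 10.1, 2.23, 10.6 and 28.3 CPM in Vehicle TAMs. Rebound lay wholly below Vehicle and Endpoint nearly so. Its log2 fold change was -3.87 ± 0.79 (adjusted p = 0.0012) for Endpoint and -3.85 ± 0.85 (0.0066) for Rebound against Vehicle, and 0.01 ± 0.80 (0.99) between Rebound and Endpoint. The related P4ha1 fell by 1.09 ± 0.18 in Endpoint against Vehicle TAMs. Its rise in Rebound against Endpoint TAMs (0.58 ± 0.18, adjusted p = 0.031) did not pass without any of 7 of the 11 libraries, Endpoint 49823, 49825, 49830, 49831 and 49845 and Rebound 49834 and 49849 (0.052 to 0.112), with upper-quartile scaling (0.48, 0.070) or with no filter (0.057).

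Ero1l, an oxidase of protein folding, had 50.7, 81.2, 20.4, 43.4 and 61.4 CPM in Rebound TAMs, 9.18 to 25.7 CPM (median 20.4) in Endpoint TAMs, and 26.5, 47.7, 10.2, 86.7 and 96.6 CPM in Vehicle TAMs. The groups overlapped in each comparison. Ero1l passed for Rebound against Endpoint (1.41 ± 0.46, adjusted p = 0.044), but not when any 1 of 10 of the 11 libraries, all except Rebound 49827, was left out (0.055 to 0.119) or with mice 49041 and 49059 left out together (1.11, 0.21), with upper-quartile scaling (0.055) or with no filter (0.099). It passed for Endpoint against Vehicle (-1.47 ± 0.46, 0.022), but not without Vehicle 57682 or 64247 (0.069 to 0.081) or with no filter (0.052). The other members that fell in Endpoint against Vehicle TAMs were Bnip3, a mitophagy receptor (-1.65 ± 0.35), the cytokine Mif (-1.64 ± 0.34) and Ankrd37 (-1.81 ± 0.58, adjusted p = 0.022, and 0.058 without Vehicle 64247). Ndrg1, Higd1a, Car9 (carbonic anhydrase 9) and Ddit4 passed no TAM stage comparison, with log2 fold changes for Endpoint against Vehicle of -1.26, -0.43, -0.27 and 0.94.

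**Figure D3:**
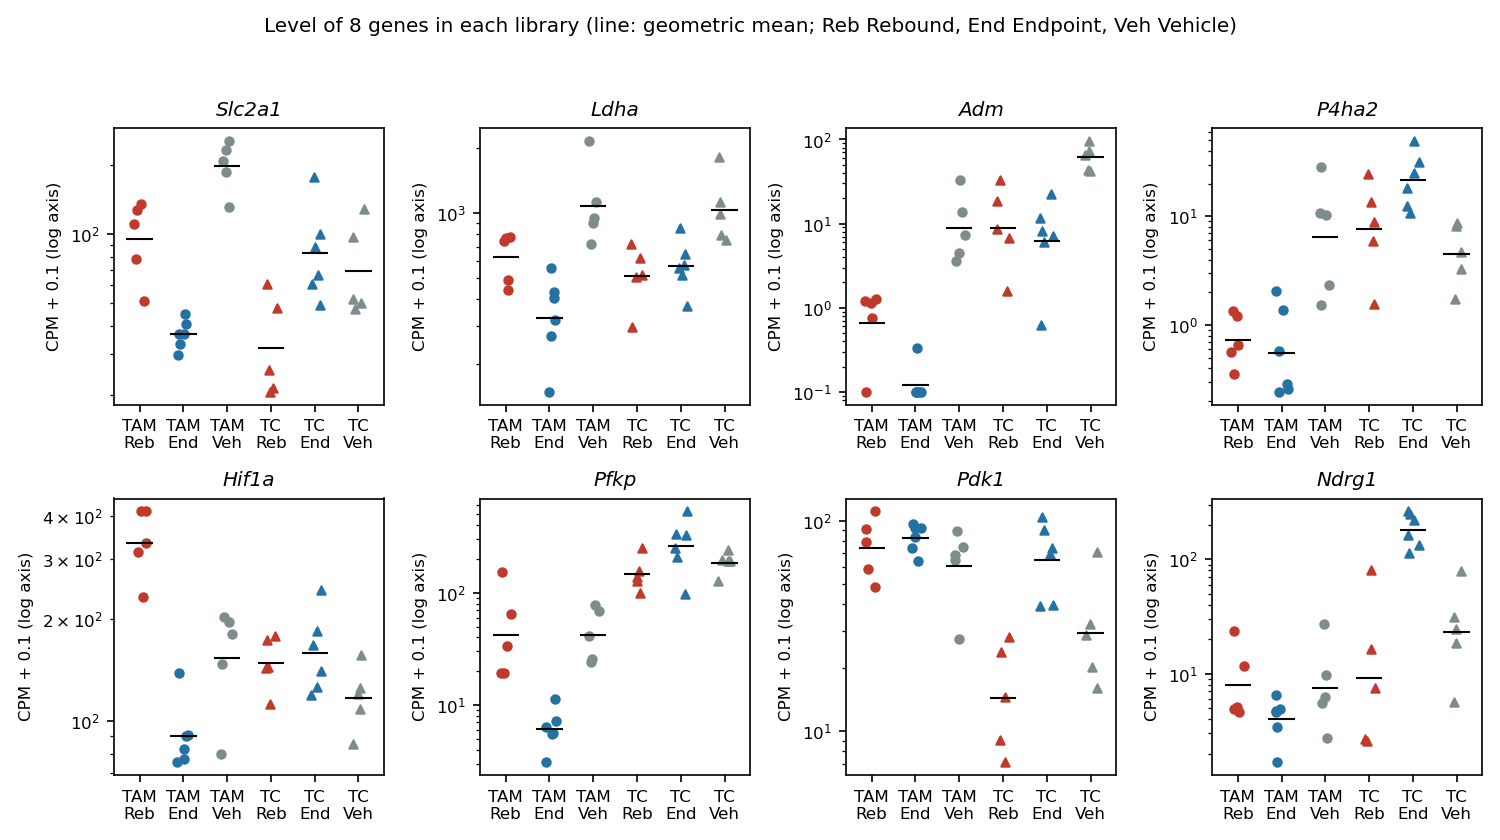
CPM + 0.1 on a log axis for 8 members in every library, by sort and stage, each point 1 mouse and the line the geometric mean, with each sort scaled in its own fit. Hif1a is highest in Rebound TAMs (231 to 414 CPM), and Slc2a1 lies at 29.8 to 45.1 CPM in Endpoint TAMs and at 131 to 256 CPM in Vehicle TAMs.

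In TCs the same genes did not fall as a block at Endpoint. Of the 36 members 3 rose and 3 fell in Endpoint against Vehicle TCs, where 14% of the 14985 genes tested rose and 14.8% fell, and the median was -0.39 over members and 0.03 over all genes. In Rebound against Vehicle TCs 0 of 36 passed with edgeR, where 0.0734% of genes did. Of the members 20 had an unadjusted p under 0.05, and the share of all genes under it was not counted. DESeq2 called 13 members lower and 0 higher, where it called 249 of all genes lower and 351 higher. In that comparison 33 of 36 log2 fold changes were negative (median -1.0), and 12 members lay wholly below Vehicle, where 2.72% of genes did so. Over all genes edgeR made 11 calls with every library. With 1 library left out it called 0 to 6 of the 36 members and 0 to 586 of all genes. The 6 members were reached without the Rebound library of mouse 49827. Both counts without that library and Endpoint 49845 together are given with the alternatives below. In Rebound against Endpoint TCs 8 members fell and 0 rose, where 11.5% of genes fell and 13.6% rose. The marker sums of Endpoint TCs and of the Rebound library of mouse 49827, given above, moved with these groups, and their part was not tested.

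**Figure D4:**
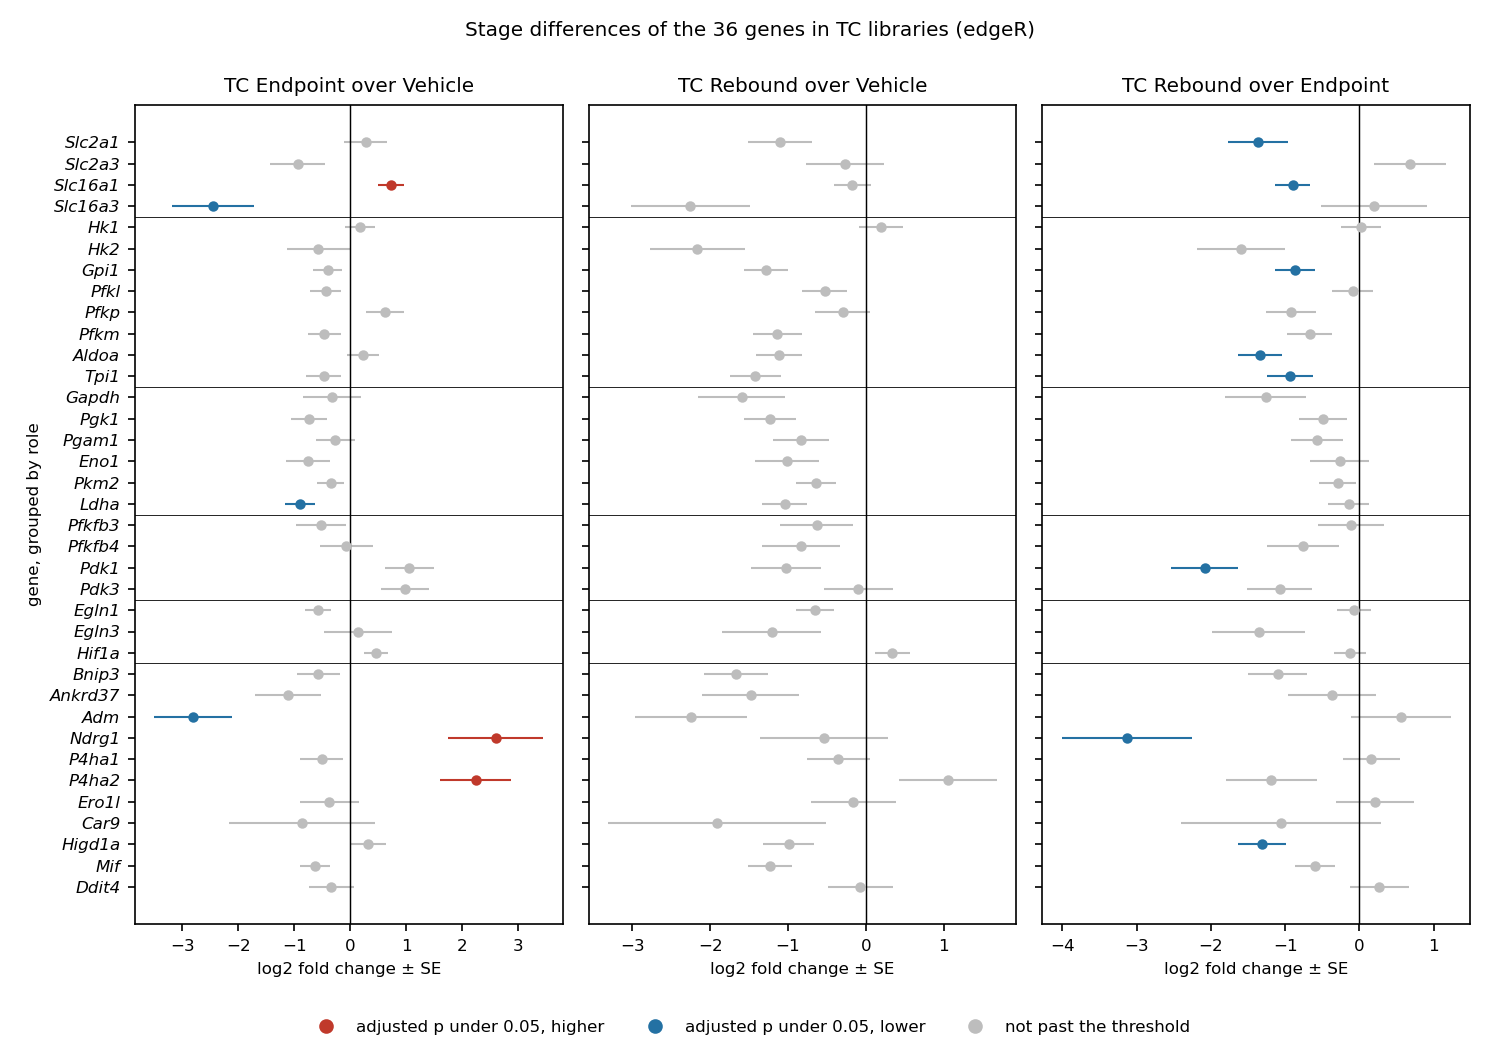
Log2 fold change with its standard error for each member in the 3 TC comparisons, ordered by role as for TAMs, with coloured points for an adjusted p under 0.05. Coloured points lie on both sides of 0 for Endpoint against Vehicle (3 and 3), and all are grey for Rebound against Vehicle.

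Among the transporters, Slc2a1 had 47.6, 21.4, 20.5, 60.6 and 25.5 CPM in Rebound TCs, 49.3 to 178 CPM (median 77.3) in Endpoint TCs, and 50.2, 52.4, 96.8, 47.2 and 129 CPM in Vehicle TCs. Endpoint and Vehicle TCs overlapped across their ranges (0.27 ± 0.39 on the log2 scale, adjusted p = 0.63), and 3 of 5 Rebound libraries lay below every other TC library. Rebound against Endpoint was -1.37 ± 0.40 (adjusted p = 0.021), but 0.051 to 0.060 without Endpoint 49845 or Rebound 49059, 49692 or 49849, and Rebound against Vehicle was -1.10 ± 0.41 (0.22). Slc2a3 had 82.7, 78.1, 96.8, 59.7 and 55.8 CPM in Rebound TCs, 4.93 to 105 CPM (median 43.8) in Endpoint TCs, and 51.8, 50.3, 140.4, 119 and 86.9 CPM in Vehicle TCs, with overlap throughout and no call.

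Slc16a1 had 34.1, 34.0, 47.2, 39.8 and 68.9 CPM in Rebound TCs, 51.4 to 121 CPM (median 81.4) in Endpoint TCs, and 57.2, 47.4, 43.0, 50.6 and 54.2 CPM in Vehicle TCs. It rose in Endpoint against Vehicle (0.73 ± 0.23, adjusted p = 0.029; 0.054 to 0.070 without Endpoint 49830 or Vehicle 54359, 54363, 57098 or 57682, and 0.072 with no filter), and it fell in Rebound against Endpoint (-0.90 ± 0.24, 0.012). Slc16a3 had 1.13, 7.9, 6.19, 4.77 and 1.51 CPM in Rebound TCs, 0.214 to 7.0 CPM (median 3.84) in Endpoint TCs, and 11.1, 13.8, 15.9, 6.71 and 55.3 CPM in Vehicle TCs. Its highest value was Vehicle 64247, and its fall in Endpoint against Vehicle (-2.45 ± 0.73, adjusted p = 0.02) was -1.67 (0.097) without that library.

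In upper glycolysis 3 of the 8 members, Gpi1, Aldoa and Tpi1, fell in Rebound against Endpoint TCs. Hk2 had 2.64, 6.96, 3.95, 8.26 and 13.4 CPM in Rebound TCs, 5.56 to 50.4 CPM (median 18.6) in Endpoint TCs, and 20.0, 28.4, 26.8, 15.5 and 67.3 CPM in Vehicle TCs. Every Rebound library was below every Vehicle library, yet the change (-2.16 ± 0.61) had an adjusted p of 0.15. Hk1 had 124, 203, 249, 193 and 179 CPM in Rebound TCs, 98.6 to 299.6 CPM (median 186) in Endpoint TCs, and 139, 211, 169, 175 and 133 CPM in Vehicle TCs, with full overlap.

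Aldoa had 519, 756, 665, 906 and 441 CPM in Rebound TCs, 1199.8 to 3096 CPM (median 1338) in Endpoint TCs, and 1353, 1747, 1220.0, 921 and 1886 CPM in Vehicle TCs. Rebound lay below both other stages, and the change was -1.34 ± 0.29 against Endpoint (adjusted p = 0.0049) and -1.12 ± 0.30 against Vehicle (0.13). Gpi1 had 112, 169, 231, 218 and 98.2 CPM in Rebound TCs, 194 to 477 CPM (median 275) in Endpoint TCs, and 322, 373, 467, 342 and 507 CPM in Vehicle TCs. Its change in Rebound against Endpoint was -0.87 ± 0.27 (adjusted p = 0.027), or 0.051 to 0.077 without Endpoint 49823 or 49845 or Rebound 49041, 49059 or 49849, and 0.053 with only the 2 groups fitted. Tpi1, the triose phosphate isomerase, had 119, 206, 209, 148 and 124 CPM in Rebound TCs, 213 to 534 CPM (median 254) in Endpoint TCs, and 352, 469.6, 349.5, 229 and 754 CPM in Vehicle TCs. Rebound lay below Endpoint and Vehicle in every library. Its change in Rebound against Endpoint was -0.94 ± 0.31 (adjusted p = 0.036), or 0.050 to 0.093 without Endpoint 49843 or 49845 or Rebound 49041 or 49849, 0.052 with no filter, and -0.68 (0.095) without 49827 and 49845 together.

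In lower glycolysis Pkm2 had 849, 1107, 1063, 1088 and 814 CPM in Rebound TCs, 764 to 2217 CPM (median 1011) in Endpoint TCs, and 1249, 1612, 1758, 1282 and 1784 CPM in Vehicle TCs. Rebound lay wholly below Vehicle (-0.64 ± 0.26, adjusted p = 0.25), and Endpoint overlapped both. Ldha had 299, 722, 620.3, 506 and 518 CPM in Rebound TCs, 372 to 856 CPM (median 567) in Endpoint TCs, and 790.0, 990.2, 1127, 753 and 1827 CPM in Vehicle TCs. Its fall in Endpoint against Vehicle TCs (-0.90 ± 0.27, adjusted p = 0.023) was -0.64 (0.083) without Vehicle 64247. Ldha was also wholly lower in Rebound than in Vehicle TCs (-1.04 ± 0.29, adjusted p = 0.15), and Rebound and Endpoint overlapped (-0.14 ± 0.28, 0.72).

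Pdk1 had 14.3, 8.97, 28.0, 23.7 and 6.99 CPM in Rebound TCs, 39.3 to 104 CPM (median 71.4) in Endpoint TCs, and 28.5, 32.1, 20.0, 15.9 and 70.8 CPM in Vehicle TCs. Every Rebound library was below every Endpoint library (-2.08 ± 0.45, adjusted p = 0.0047), and Vehicle overlapped both. Pdk3 had 18.9, 18.9, 33.8, 20.9 and 19.5 CPM in Rebound TCs, 23.3 to 109 CPM (median 36.2) in Endpoint TCs, and 28.6, 21.6, 12.2, 11.6 and 45.8 CPM in Vehicle TCs. It passed no comparison. Hif1a had 173, 144, 112, 178 and 143 CPM in Rebound TCs, 119 to 243 CPM (median 154) in Endpoint TCs, and 85.2, 119.6, 108, 124 and 156 CPM in Vehicle TCs. The stages overlapped, with log2 fold changes of 0.34 ± 0.23 for Rebound against Vehicle (adjusted p = 0.51) and 0.46 ± 0.22 for Endpoint against Vehicle (0.12).

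Ndrg1, a stress-induced gene that is also abundant in myelinating cells (chr15:66929318-66969640, minus strand), had 16.2, 7.31, 2.46, 80.4 and 2.58 CPM in Rebound TCs, 113 to 264 CPM (median 191) in Endpoint TCs, and 31.1, 78.3, 24.3, 5.6 and 18.5 CPM in Vehicle TCs. Endpoint TCs lay above every other TC library, and the high Rebound value was mouse 49827. Ndrg1 rose in Endpoint against Vehicle TCs (2.59 ± 0.86, adjusted p = 0.034; 0.052 to 0.076 without any of 7 of the 11 libraries, Endpoint 49825, 49830 and 49831 and Vehicle 54359, 57098, 57682 and 64247, and 0.051 with no filter) and fell in Rebound against Endpoint TCs (-3.13 ± 0.88, 0.018). Oligodendrocyte markers summed to 549 to 17841 CPM in Rebound TCs, highest in mouse 49827, to 22320 to 34056 CPM in Endpoint TCs and to 2735 to 17712 CPM in Vehicle TCs. Their part in the Ndrg1 values was not tested. Higd1a, a mitochondrial hypoxia gene, had 22.7, 44.2, 41.1, 60.2 and 41.0 CPM in Rebound TCs, 53.0 to 189.7 CPM (median 95.1) in Endpoint TCs, and 86.1, 94.3, 52.8, 59.9 and 123 CPM in Vehicle TCs. It fell in Rebound against Endpoint TCs (-1.31 ± 0.32, adjusted p = 0.0089), with overlap through mouse 49827.

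Adm had 8.43, 33.0, 6.62, 1.47 and 18.3 CPM in Rebound TCs, 0.53 to 22.2 CPM (median 7.56) in Endpoint TCs, and 42.6, 43.6, 66.2, 72.8 and 96.9 CPM in Vehicle TCs. Both BLZ945 groups lay wholly below Vehicle, and the change passed for Endpoint (-2.80 ± 0.69, adjusted p = 0.0087) but not for Rebound (-2.24 ± 0.72, 0.19). P4ha2 had 24.4, 13.4, 8.86, 1.47 and 5.81 CPM in Rebound TCs, 10.6 to 49.8 CPM (median 21.7) in Endpoint TCs, and 1.64, 7.99, 4.64, 3.16 and 8.55 CPM in Vehicle TCs. It rose in Endpoint against Vehicle TCs without overlap (2.24 ± 0.64, adjusted p = 0.016). The related P4ha1 had 113, 181, 139, 33.8 and 106 CPM in Rebound TCs and 77.0 to 183 CPM (median 90.7) in Endpoint TCs. In Vehicle TCs P4ha1 had 93.7, 77.4, 159, 126 and 277 CPM, and the stages overlapped. Pericyte and fibroblast markers, cells that make collagen, summed to 120 to 7952 CPM in Rebound TCs, 267 to 1015 CPM in Endpoint TCs and 12.9 to 151 CPM in Vehicle TCs, and their part in the P4ha2 values was not tested.

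TAMs and TCs were then compared within each stage in a fit of all 32 libraries. At Rebound 18 members were higher and 7 lower in TAMs, where 20.4% of the 15668 genes tested were higher and 27.4% lower. At Endpoint 5 were higher and 15 lower, where 18.7% of genes were higher and 32.4% lower. At Vehicle 15 were higher and 7 lower, where 25.6% were higher and 29.2% lower. Members higher in TAMs at all 3 stages were Hk2, Slc16a3, Pfkfb3, Pfkfb4 and P4ha1. Hk2 reached median levels of 225 CPM in Rebound, 194 CPM in Endpoint and 375 CPM in Vehicle TAMs on this joint scale, against 5.73, 15.5 and 22.7 CPM in TCs of the same stages, with log2 fold changes of 5.36, 3.48 and 3.82. Slc16a3 had medians of 116, 46.5 and 209 CPM in Rebound, Endpoint and Vehicle TAMs, against 3.85, 3.14 and 11.6 CPM in TCs.

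Lower in TAMs at all 3 stages were Hk1, Pfkm, Egln1, Slc16a1, Higd1a and Adm. Pfkm had log2 fold changes of TAM against TC of -2.41 at Rebound, -2.93 at Endpoint and -3.08 at Vehicle. In this group the Rebound value of Higd1a (-0.70) was -0.75 (adjusted p = 0.087) with the mouse as a block, and did not pass without any of 7 of the 10 Rebound libraries (0.052 to 0.119; TAM Rebound 49059, 49827 and 49849, TC Rebound 49059, 49692, 49827 and 49849). That of Slc16a1 (-0.83) was -0.62 (adjusted p = 0.052) without TC Rebound 49849. The Vehicle value of Adm (-1.80) did not pass without any of 7 of the 10 Vehicle libraries (0.067 to 0.108; TAM Vehicle 54359, 54363, 57098 and 57682, TC Vehicle 57098, 57682 and 64247) or with no filter (0.060). A few members passed in opposite directions. Slc2a1 was higher in TAMs by 2.07 ± 0.36 on the log2 scale at Rebound and by 2.04 ± 0.36 at Vehicle, and lower at Endpoint (-0.80 ± 0.32), with adjusted p-values of 2.1e-05, 1.8e-05 and 0.035. The Endpoint value did not pass with the mouse as a block (-0.67, adjusted p = 0.125), without the ribosomal RNA precursor Rn45s (-0.64, 0.081), with no filter (0.097) or a stricter one (0.060), or without any of 6 of the 12 Endpoint libraries, TAM 49825, 49830, 49831 and 49845 and TC 49825 and 49845 (0.052 to 0.191). Aldoa gave 1.56 at Rebound, 1.30 at Vehicle and -1.14 at Endpoint, and Gpi1 0.93 at Rebound and -0.68 at Endpoint. P4ha2 was lower in TAMs at Rebound (-3.36) and Endpoint (-4.59), and Ndrg1 at Endpoint (-4.98), and markers of other cell types were high in Endpoint TCs, as given above.

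The difference between the sorts in the change from Vehicle was tested directly. For Endpoint against Vehicle 13 members had a more negative change in TAMs than in TCs and 0 a more positive one, where 17% and 8.73% of genes did. The median difference was -1.01 over members and -0.16 over all genes. Of the 13, 6 act in upper glycolysis, and the values were -2.84 ± 0.47 for Slc2a1, -2.34 ± 0.41 for Hk1, -3.61 ± 0.67 for Pfkp, -2.44 ± 0.41 for Aldoa and -2.04 ± 0.39 for Pkm2 (adjusted p = 0.00011, 0.00018, 0.00032, 0.00012 and 0.0004). Hif1a also passed (-1.37 ± 0.31, adjusted p = 0.0021). Of the weaker calls, Tpi1 (-1.32 ± 0.45, 0.031) did not pass without any of 10 of the 22 libraries (TAM Endpoint 49823 and 49830, TAM Vehicle 54359, 54363 and 64247, TC Endpoint 49843 and 49845, TC Vehicle 54359, 57098 and 57682), with upper-quartile scaling (-1.06, 0.087), with no filter (0.071) or without Rn45s (0.060). Eno1 (-1.15 ± 0.42, 0.044) did not pass without any of 18, all but TAM Endpoint 49843, TAM Vehicle 57098, TC Endpoint 49830 and TC Vehicle 54359, or with the mouse as a block (-1.13, 0.128), and its adjusted p was 0.059 to 0.156 with upper-quartile scaling, with either filter change or without Rn45s. Endpoint TCs were the group low in tumour markers, and the part of their cell makeup in these differences was not tested. For Rebound against Vehicle 1 member passed, P4ha2 (-4.96 ± 1.11, adjusted p = 0.03), where 0.517% of genes did. With the mouse as a block, over the 15 mice with both libraries, P4ha2 was -3.88 (adjusted p = 0.27), and without the block over the same mice -4.81 (0.093). It also did not pass without any of 8 of the 20 libraries, TAM Rebound 49041, 49059 and 49834, TAM Vehicle 64247, TC Rebound 49041 and 49059, and TC Vehicle 54359 and 57682 (0.054 to 0.076).

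Several steps are served by paired isozymes, and their balance differed between sorts. Hk2 made up a median 88.7% of the hexokinase level per kilobase (Hk1 plus Hk2) in Rebound TAMs, 94.4% in Endpoint TAMs and 88.3% in Vehicle TAMs. In TCs its share was 4.66% at Rebound, 11.6% at Endpoint and 17% at Vehicle. Slc16a3 held 76.9%, 57.9% and 83.7% of the level per kilobase of both lactate transporters in Rebound, Endpoint and Vehicle TAMs, against 9.07%, 4.25% and 19.5% in TCs. Pfkm held 9.48%, 17.5% and 5.21% of Pfkm plus Pfkl in Rebound, Endpoint and Vehicle TAMs, and 54.7%, 68.4% and 68.1% in TCs. A ratio of 2 genes within a library does not depend on its scaling, but it can follow the cell types in the library. In Endpoint TCs the lowest log2 ratio of Slc16a3 to Slc16a1 (-8.41) was in mouse 49845, highest in ependymal and choroid plexus markers. The highest Hk2 share there (42.2%) was in mouse 49843, highest in myeloid markers (12838 CPM). The part of the cell makeup in these ratios was not tested.

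The log2 ratios of 9 such pairs were compared between stages in each sort, 54 exact two-sided permutation tests in all, and 10 passed at an adjusted p of 0.0468. In Endpoint against Vehicle TAMs the ratio Hk2 to Hk1 was higher by 1.22 (exact p = 0.00866), Pfkm to Pfkl higher by 1.88 (0.00433), and Slc16a3 to Slc16a1 lower, at -1.98 (0.00433). In Rebound against Endpoint TAMs Hk2 to Hk1 gave -1.31 (exact p = 0.00866) and Slc16a3 to Slc16a1 gave 1.35 (0.00433). In Endpoint against Vehicle TCs Slc16a3 to Slc16a1 gave -3.21 and P4ha2 to P4ha1 gave 2.70 (exact p = 0.00433 each). In Rebound against Vehicle TCs Hk2 to Hk1 gave -2.37 (exact p = 0.00794). In Rebound against Endpoint TCs Slc2a3 to Slc2a1 gave 2.48 and Pdk3 to Pdk1 gave 1.29 (exact p = 0.00866 each). The smallest two-sided p that 6 against 5 libraries allow is 0.00433, and 5 against 5 allow 0.00794, so these calls stand close to the limit of the design: 24 of the 32 fits with 1 library left out made 0 calls.

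**Figure D5:**
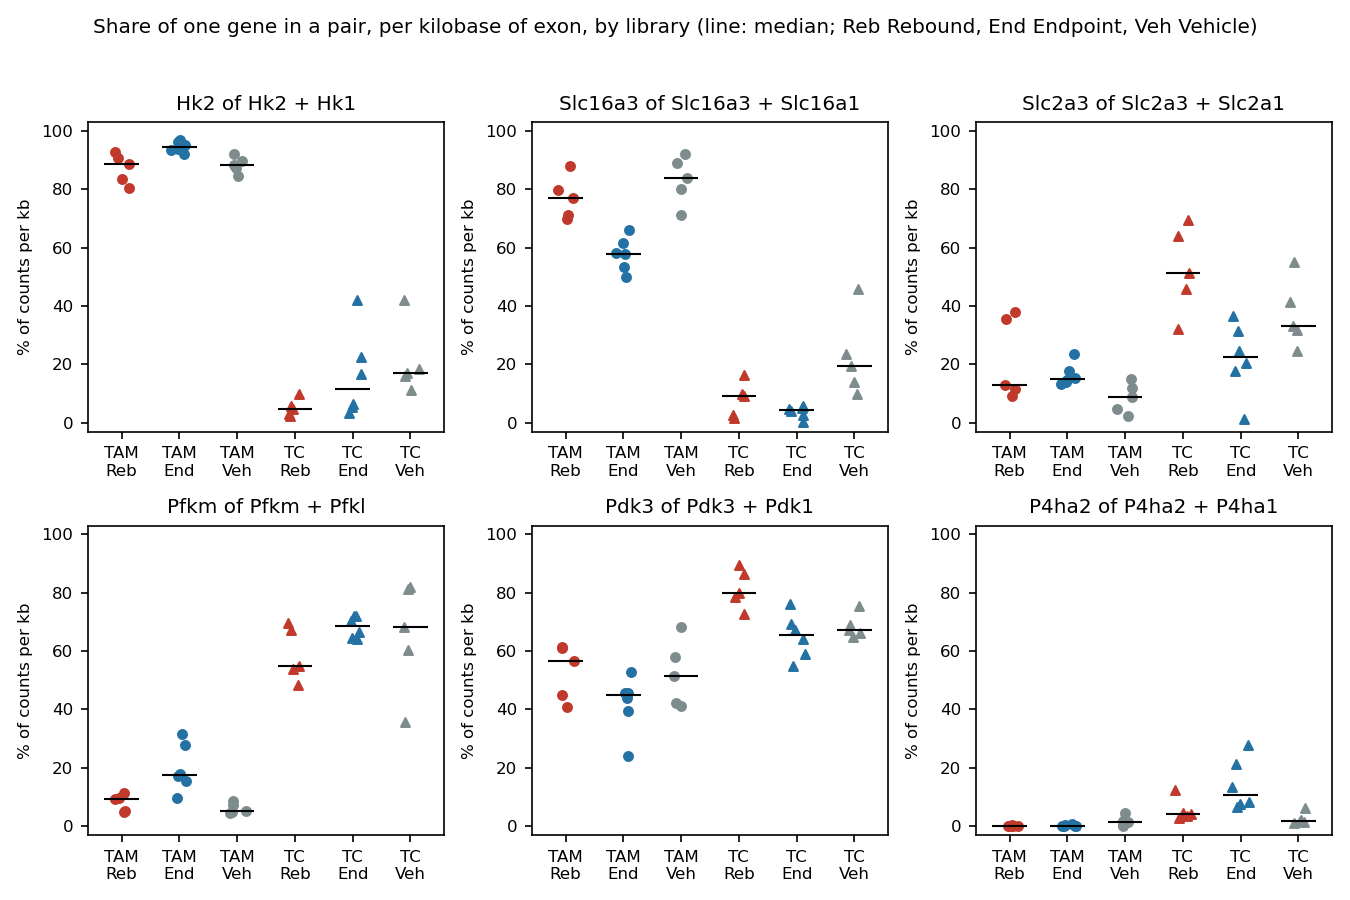
Share, in percent, of the gene named first in 6 isozyme pairs in the pair's summed counts per kilobase, by sort and stage, each point 1 library and the line the median. The Hk2 share has medians of 88.3 to 94.4% in TAMs and of 4.66 to 17% in TCs, with no overlap between the sorts.

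Beside the members, 7 lists of neighbouring pathways were read in the same fits. Of all genes tested, 13.7% rose and 19.3% fell in Endpoint against Vehicle TAMs, 7% and 7.73% in Rebound against Vehicle TAMs, and 11.7% and 5.9% in Rebound against Endpoint TAMs. In TCs 14% rose and 14.8% fell in Endpoint against Vehicle, and 13.6% rose and 11.5% fell in Rebound against Endpoint. Each count below is to be read against these shares, and the lists were given no test of their own. Of 17 other glycolysis enzymes and glucose transporters, 2 rose and 7 fell in Endpoint against Vehicle TAMs (median -0.75, against -0.03 over all genes), with Aldoc, the brain aldolase, at 2.02 and the transporter Slc2a6 at -2.22. Aldoc is abundant in astrocytes. The mean log2 CPM of 8 astrocyte markers was 4.60 to 5.27 in Endpoint TAMs, against 3.16 to 3.82 in Vehicle TAMs, while their summed CPM overlapped (1394 to 2411 against 1422 to 2542), and their part in the Aldoc values was not tested. In Rebound against Vehicle TAMs 4 of the 17 fell, Slc2a5 most (-3.31), and in Rebound against Endpoint TAMs 3 rose (Slc2a6, 1.66) and 2 fell (Aldoc, -1.50). In TCs 1 rose at Endpoint against Vehicle (Galm, 4.14) and 6 fell in Rebound against Endpoint (Slc2a5, -4.45). Of 13 genes of the HIF machinery, 4 rose and 2 fell in Endpoint against Vehicle TAMs, where 13.7% of all genes rose and 19.3% fell, with Epas1, the HIF-2 alpha gene, at 1.40 and Hif1an, an asparagine hydroxylase of HIF, at -0.86. In Rebound TAMs 3 rose against Vehicle (Arnt2, 2.02) and 1 fell against Endpoint (Vhl, -0.76). In TCs 2 of 14 fell in Endpoint against Vehicle (Arnt2, -1.22), and Arnt2 (1.65) and Tceb2 (-0.98) passed in Rebound against Endpoint.

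Other known HIF targets passed in both directions. Of 23 tested in TAMs, 4 rose and 6 fell in Endpoint against Vehicle (median 0.02, against -0.03 over all genes), where 13.7% of all genes rose and 19.3% fell, with Ppp1r3c at 2.03 and Hmox1, the haem oxygenase, at -5.59. In Rebound TAMs 3 rose and 1 fell against Vehicle (Car12, 4.67; Hmox1, -3.66), and 5 rose and 1 fell against Endpoint (Bhlhe40, 4.13; Ccng2, -0.87). Of 25 tested in TCs, 7 rose and 3 fell in Endpoint against Vehicle (Car12, 7.51; Hmox1, -2.48), and 1 rose and 3 fell in Rebound against Endpoint (Cdkn1a, 1.04; Car12, -5.70).

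Of 16 genes of the TCA cycle, 7 fell in Endpoint against Vehicle TAMs, where 19.3% of all genes fell (Ogdh, -1.50; median -0.37 over the list and -0.03 over all genes), 3 fell in Rebound against Vehicle TAMs (Ogdh, -0.71) and 4 rose in Rebound against Endpoint TAMs (Ogdh, 0.79). In TCs 1 of the 16 fell in Endpoint against Vehicle (Cs, -0.54) and 4 in Rebound against Endpoint (Sdhc, -0.91). Of 12 genes of pyruvate entry, Dlat rose in Rebound TAMs against Vehicle (0.50) and against Endpoint (0.62), 2 rose in Endpoint against Vehicle TCs (Pdp1, 1.67) and 3 fell in Rebound against Endpoint TCs (Pdk2, -1.31). Of 8 genes of the pentose phosphate pathway, 1 rose and 5 fell in Endpoint against Vehicle TAMs, where 13.7% of all genes rose and 19.3% fell (Rpia, 1.16; Pgd, -1.26), 2 fell in Rebound against Vehicle TAMs (Tkt, -0.59), and 1 rose and 1 fell in Rebound against Endpoint TAMs (Pgd, 0.82; Rpia, -1.24). In Endpoint against Vehicle TCs 1 fell (Taldo1, -0.47). Of 3 gluconeogenic genes tested in TAMs, 2 fell in Endpoint against Vehicle (Pcx, -0.95), 1 in Rebound against Vehicle (Pcx, -0.75) and 1 in Rebound against Endpoint (Pck2, -0.68). In Rebound against Vehicle TCs 0 genes of these lists passed with edgeR, where 0.0734% of all genes did. Among the other HIF targets 10 of 25 had an unadjusted p under 0.05, and the share of all genes under it was not counted.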

How the data were processed

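RNA-seq was read from 1 deposited table of whole-number counts per gene symbol, made by the authors with no normalization. STAR 2.3.0e, SAMtools and the mm10 build are named, without their roles, in the submitters' processing notes. Which program counted reads, and on which annotation, is not given in the sources used here. SMART-Seq libraries were sequenced as pairs of reads, per the labels' protocols, and do not mark strand. Every count in the 22 BLZ945 libraries (Rebound and Endpoint) was even, while up to 40.6% of the genes in a Vehicle library had an odd count, a difference that goes with treatment; an alternative divided the BLZ945 counts by 2.

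Genes were tested with edgeR 4.0.16 (quasi-likelihood, R 4.3.3, TMM scaling, filterByExpr) in a fit per sort of 16 libraries and a joint fit of 32, with Benjamini-Hochberg adjustment over all genes tested at 0.05. Alternatives were DESeq2 1.42.0, upper-quartile scaling, no filter, a filter at 5 CPM in 5 libraries, BLZ945 counts divided by 2, Rn45s left out, only the 2 groups compared, each library left out, the mouse as a block, and, chosen after seeing the data, 2 pairs of libraries left out and the unblocked fit of the 15 mice with both sorts. Mice pair the TAM and TC libraries (same animal): their deviations correlated at 0.011 to 0.337. The filter at 5 CPM removed some low members, Adm and P4ha2 in TAMs among them, so it could not check those. Isozyme ratios used log2 of counts plus 0.5. Levels per kilobase used GENCODE M21 exon lengths. Adm and P4ha2 ratios have exact 95% intervals, which, like the depth, cover counting error only. The edgeR step was tested on simulated data. Members, lists and tests were chosen with earlier results of these data known. In each stage comparison up to 8 called members of largest change, Slc2a1, Hk2, Pkm2, Ldha, Hif1a and the pairs that passed are given by library; of other lists, the called gene of largest change in each direction.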

Additional observations from a re-analysis of the deposited data

Results flagged for a closer look

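Of 216 sets of 1 member in 1 group, 16 (7.41%) held a library with a gap to the nearest other value that was wide for the group's range; chance alone gives about 1 in 20. In TAMs these were Gapdh in Endpoint (lowest, mouse 49825, 1.39 CPM), Eno1 (3.77 CPM), Egln3 (14.5 CPM) and Hif1a (138 CPM) in Endpoint, all highest in mouse 49843, Adm in Endpoint (highest, 49823, 0.236 CPM) and Pdk1 in Vehicle (lowest, 57098, 27.2 CPM). In Endpoint TCs, mouse 49845 was highest for Pgk1 (98.5 CPM), Pgam1 (36.8 CPM), Bnip3 (186 CPM) and P4ha1 (183 CPM), and mouse 49843 lowest for Ankrd37 (0.530 CPM). The TC library of 49845 also held the most ependymal and choroid plexus marker RNA of its group (219241 CPM). In Rebound TCs Pfkfb3 was lowest in 49041 (4.91 CPM), Pgk1 in 49827 (24.1 CPM) and Bnip3 in 49849 (17.1 CPM), and Pdk3 was highest in 49692 (33.8 CPM). In Vehicle TCs Ero1l was highest in 64247 (109 CPM).

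The change in Endpoint against Vehicle differed between TAMs and TCs for 13 members (edgeR, adjusted p under 0.05), all more negative in TAMs on the log2 scale. The differences were -2.84 for Slc2a1, -2.34 for Hk1, -1.19 for Gpi1, -1.81 for Pfkl, -3.61 for Pfkp, -2.44 for Aldoa and -1.32 for Tpi1. They were -1.15 for Eno1, -2.04 for Pkm2, -5.20 for Adm, -3.93 for Ndrg1, -1.37 for Hif1a and -6.19 for P4ha2. For Rebound against Vehicle the difference passed for P4ha2 alone, at -4.96.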

How the results depend on the processing

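Over all alternatives 3098 values were recomputed; 2866 kept direction and side of the threshold, 208 kept direction but lost the threshold, 18 gained it and 6 turned. Counts of members that passed moved by over 1.5 times in these cases. For TAM Rebound against Vehicle, DESeq2 gave 14 (edgeR 9) and leaving out 1 library 7 to 14. For TAM Rebound against Endpoint (13), leaving out mice 49041 and 49059 gave 8 and leaving out 1 library 10 to 17. For TC Endpoint against Vehicle (6), leaving out mice 49827 and 49845 gave 10, 1 library 4 to 9. For TC Rebound against Vehicle (0), DESeq2 gave 13, the same 2 libraries out 9, 1 library 0 to 6. For TC Rebound against Endpoint (8), DESeq2 gave 13, 1 library 5 to 10 (5 without Endpoint 49845). The TAM minus TC difference in Rebound against Vehicle (1) was 0 with the mouse as a replicate block, 0 without the block over the same 15 mice, and 0 to 1 with 1 library left out. Isozyme calls (10) went to 0 to 10 with 1 library left out, where fewer libraries raise the smallest p.

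Leaving out 1 library gave 22 to 26 members for TAM Endpoint against Vehicle, 19 to 22, 22 to 25 and 18 to 25 for TAM against TC at Endpoint, Rebound and Vehicle, and 11 to 19 for the Endpoint difference, which the block put at 15. The block ended no other call of a named value than those given with the results and Eno1 (0.81, adjusted p = 0.081) and Bnip3 (1.00, 0.053) between sorts at Vehicle; stages were of different mice, so no paired analysis was possible within a sort. None of the 6 values that turned sign had passed. Slc2a1 in TC Endpoint against Vehicle (0.27) was -0.066 (without Endpoint 49845) to 0.55 with 1 library out, and -0.038 without 49827 and 49845. Ldha in TC Rebound against Endpoint (-0.14) was -0.27 to 0.0099 (without Rebound 49041; 0.0037 without Endpoint 49845), and 0.012 without both 49827 and 49845. Hif1a there (-0.12) was -0.20 to 0.025 (without Endpoint 49823).

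Over all genes, calls in TC Rebound against Vehicle (11) were 600 with DESeq2, 26 with the stricter filter, 25 (18 higher, 7 lower; 6 and 5 as deposited) with BLZ945 counts divided by 2, 0 with only the 2 groups, 911 without 49827 and 49845, and 0 to 586 with 1 library out. TAM Rebound against Vehicle (1961) gave 999 with only the 2 groups and 1084 without 49041 and 49059, and TAM Rebound against Endpoint (2337) 1345 without them. The difference in Rebound against Vehicle (81) gave 374 with DESeq2, 4 with the block, 31 without it over the same mice, and 36 to 605 with 1 library out. Upper-quartile scaling moved the median of all genes from -0.03 to 0.13 in TAM Endpoint against Vehicle and from -0.16 to 0.08 in the Endpoint difference. Its splits of higher and lower genes were 2497 and 1921 (TMM 1821 and 2569) for TAM Endpoint against Vehicle, 1096 and 808 (932 and 1029) for TAM Rebound against Vehicle, 1276 and 1080 (1552 and 785) for TAM Rebound against Endpoint, 1951 and 2088 (1368 and 2657) for the Endpoint difference and 74 and 26 (50 and 31) for the Rebound difference. Under it 24 members still fell and 0 rose in TAM Endpoint against Vehicle, with a member median of -1.23. The causes of these shifts were not tested. Depth limits Adm and P4ha2 in TAMs.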

Other observations

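Single mice stood at the edge of their group for many members at a time. Vehicle mouse 64247 had the highest level of its group for 25 of the 36 members in TAMs and for 26 of 36 in TCs. Vehicle mouse 57098 was lowest for 22 members in TAMs. In Rebound TAMs mouse 49849 was highest for 20 members and mouse 49827 lowest for 17. In Endpoint TCs mouse 49845 was highest for 21 members and mouse 49843 lowest for 15, while in Endpoint TAMs mouse 49843 was highest for 19. The TC library of mouse 49845 had the lowest TMM factor of the TCs (0.666). The same counts were not made over all genes, so these are not shown to be particular to the members. The members took a median 0.640% of all counts in Rebound TAMs, 0.332% in Endpoint TAMs and 0.833% in Vehicle TAMs. In TCs their share was 0.463% at Rebound, 0.519% at Endpoint and 0.716% at Vehicle.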
